A study of Rattus norvegicus with 16 samples.

Results

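miR-143 and miR-145 are the pair of microRNAs that mark smooth muscle, and their levels were compared between neonatal hearts of HHR, the Hypertrophic Heart Rat, and of NHR, the Normal Heart Rat. The members are the array entries rno-miR-143 and rno-miR-145 (the prefix stands for the rat) and the star arm of each, 4 of the 677 rat miRNAs on the array. The unstarred arms were detected on all 16 arrays and both were among the 233 miRNAs tested, while the star arms were detected on 0 arrays. Hearts came from pups aged 2 days, and 100 ng of total RNA from each animal was labelled with Cy3 and hybridised to its own array, with no pooling. Each strain gave 8 pups, of which 4 were female and 4 male, HHR as well as NHR. HHR is an inbred strain with enlarged hearts and NHR is the strain it is compared with; no animal was treated, and strain is the only genetic difference the labels name. The labels disagree on the tissue, since the sample protocols speak of the whole heart and the design text of ventricles separated from the atria, so the share of vessel and atrial tissue in each sample is not known. In RNA from such tissue, fewer smooth muscle cells and less miRNA in each cell cannot be told apart.

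miRNAs are short RNAs that guide a silencing complex to messenger RNAs that pair with their seed, the bases 2 to 8 at the 5′ end. miR-143 and miR-145 are cut from hairpins of one primary transcript, which serum response factor and its partner myocardin switch on in smooth muscle. There they hold cells in the contractile state; known targets include the transcription factors Elk1 for miR-143 and Klf4 for miR-145. In the heart they are found mainly in the walls of coronary vessels, and in the mouse also in the early embryonic heart.

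The 4 mature arms are shown with the seed in capitals, 5′ to 3′, because each arm has a seed of its own although all come from one transcript. Sequences are from RefSeq, build GRCr8; the array files hold no probe sequences, and array names were matched to arms by miRBase naming (miR-143 is the 3p arm and miR-145 the 5p arm).
miR-143: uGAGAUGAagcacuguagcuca
miR-143*: gGUGCAGUgcugcaucucugg
miR-145: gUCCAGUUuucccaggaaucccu
miR-145*: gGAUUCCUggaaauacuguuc
miR-143 is 22 bases long and 45.5% G or C. miR-145 is 23 bases long and 52.2% G or C. No other of the 724 mature rat miRNAs in the RefSeq table has the seed of any of the 4 arms.

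The hairpins are printed with both mature arms in capitals, to show that the arm detected is on the 3′ side of one hairpin and on the 5′ side of the other.
Mir143: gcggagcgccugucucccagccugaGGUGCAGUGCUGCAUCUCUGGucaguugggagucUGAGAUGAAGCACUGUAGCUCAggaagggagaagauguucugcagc
Mir145: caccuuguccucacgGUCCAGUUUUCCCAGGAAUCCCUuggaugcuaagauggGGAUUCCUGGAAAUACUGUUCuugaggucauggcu
In GRCr8 the Mir143 hairpin lies at chr18:57371349-57371453 and the Mir145 hairpin at chr18:57369983-57370070, both on the minus strand, with 1278 bases between them. Both lie within Carmn (chr18:57368191-57389112), a long noncoding RNA gene that hosts the cluster and is itself known from smooth muscle. The next miRNA gene with a signal on the array, Mir378 (chr18:57128922-57128986), lies 241 kb away on the same chromosome within Ppargc1b, which codes for a transcriptional coactivator of mitochondrial metabolism.

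Levels are scanner intensities after each array was scaled so that a common set of 258 well-detected probes had the same 75th percentile on all arrays. miR-143 was among the brighter miRNAs, with the 11th highest signal of 677 on 15 arrays and the 10th on the array of NHR male 4. It averaged 2.25% of the summed miRNA signal in HHR hearts and 2.29% in NHR hearts. miR-145 was a middling signal, ranked from 119 to 122 in HHR hearts and from 116 to 128 in NHR hearts. It averaged 0.0509% of the summed signal in HHR hearts and 0.0522% in NHR hearts. A signal depends on the probe and on how well a miRNA is labelled, so these ranks order signals and not numbers of molecules. The shares did not pass a two-sided exact permutation test between strains for miR-143 (p = 0.0813) or for miR-145 (p = 0.178), with 8 animals each.

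Under this scaling miR-143 read lower in HHR hearts than in NHR hearts. The scaled signal of miR-143 was 1272, 1289, 1236 and 1271 in HHR females 1 to 4 and 1307, 1288, 1299 and 1256 in HHR males 1 to 4. It was 1445, 1378, 1361 and 1391 in NHR females 1 to 4 and 1427, 1376, 1371 and 1388 in NHR males 1 to 4. All 8 HHR values lay below the lowest NHR value. Of the 233 tested miRNAs 14.2% had strains that did not overlap, and 11.2% did so with HHR lower. The strain means were 1277 ± 23.2 over the 8 HHR animals and 1392 ± 29.0 over the 8 NHR animals (mean ± SD).

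miR-145 followed the same order with 1 HHR animal inside the NHR range. Its scaled signal was 28.4, 29.9, 28.4 and 29.1 in HHR females 1 to 4 and 29.4, 28.7, 29.5 and 28.0 in HHR males 1 to 4. It was 32.1, 31.9, 30.7 and 29.7 in NHR females 1 to 4 and 33.4, 31.2, 34.5 and 30.5 in NHR males 1 to 4. HHR female 2, at 29.9, was above the lowest NHR array, NHR female 4, at 29.7. The means were 28.9 ± 0.685 over the 8 HHR animals and 31.7 ± 1.60 over the 8 NHR animals (mean ± SD), and the NHR animals were spread more widely.

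**Figure D1:**
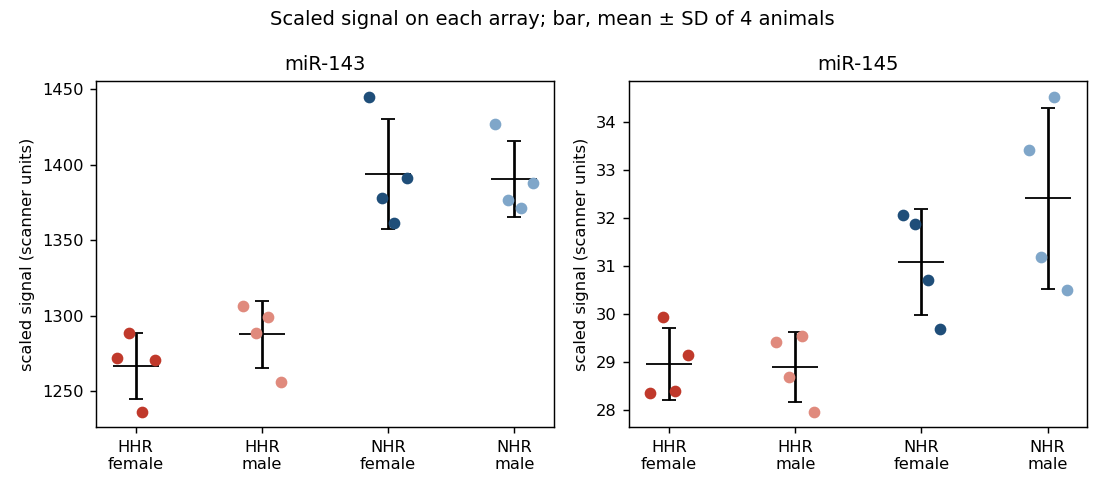
Scaled signal of miR-143 (left) and miR-145 (right) on each array, in scanner units, by strain and sex; points are animals and bars are the mean ± SD of 4. The vertical axes do not start at 0. All 8 HHR points of miR-143 lie below the NHR points, and for miR-145 1 HHR female lies above the lowest NHR female; the direction depends on the scaling of the arrays.

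In the limma fit over all 233 tested miRNAs, the log2 difference, HHR minus NHR, was -0.12 ± 0.020 for miR-143 (SE, 95% interval -0.17 to -0.081, adjusted p = 2.45e-04). For miR-145 it was -0.13 ± 0.030 (SE, 95% interval -0.20 to -0.068, limma adjusted p = 0.00237). Both were called lower in HHR at an adjusted p under 0.05, a call made for 106 of the 233 miRNAs (45.5%); 21 (9.01%) were called higher, which makes 127 (54.5%) in either direction. The members' calls were therefore near what a miRNA of this array did under this scaling: the median difference over all 233 was -0.11. Relative to that median miR-143 lay at -0.018 and miR-145 at -0.027, and 102 and 94 of the tested miRNAs had lower differences.

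The sign of the members' differences turned on the scaling. It was the sign of the median miRNA under each of 7 scalings, except for miR-143 with quantile normalization. With quantile normalization the differences were -0.041 for miR-143 and 0.012 for miR-145, against a median over all miRNAs of 0.022, and limma called neither (adjusted p = 0.0546 and 0.755). With the percentile taken over all probes they were 0.16 and 0.15 against a median of 0.17. There limma called both members higher in HHR (adjusted p = 0.0136 and 0.0194), a call made for 134 of the 233 miRNAs. Divided by the summed signal of each array the members' differences were -0.024 and -0.033 against a median of -0.0096, with neither called by limma (adjusted p = 0.372 and 0.341). Median centring, the spike-in controls and no scaling at all gave differences above 0 for both members, between 0.041 and 0.21, with no call. Apart from quantile normalization, each of these 7 scalings shifts all miRNAs of an array by the same amount, except at the floor. The distance of the members from the median miRNA, within 0.03 on the log2 scale, was thus nearly fixed beforehand. miR-143 lay farther from the median with quantile normalization, normexp background (-0.085 against -0.20) and in the authors' log2 values (0.19 against 0.065). For miR-145 normexp gave -0.21 and the authors' values 0.054, against the same medians.

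**Figure D2:**
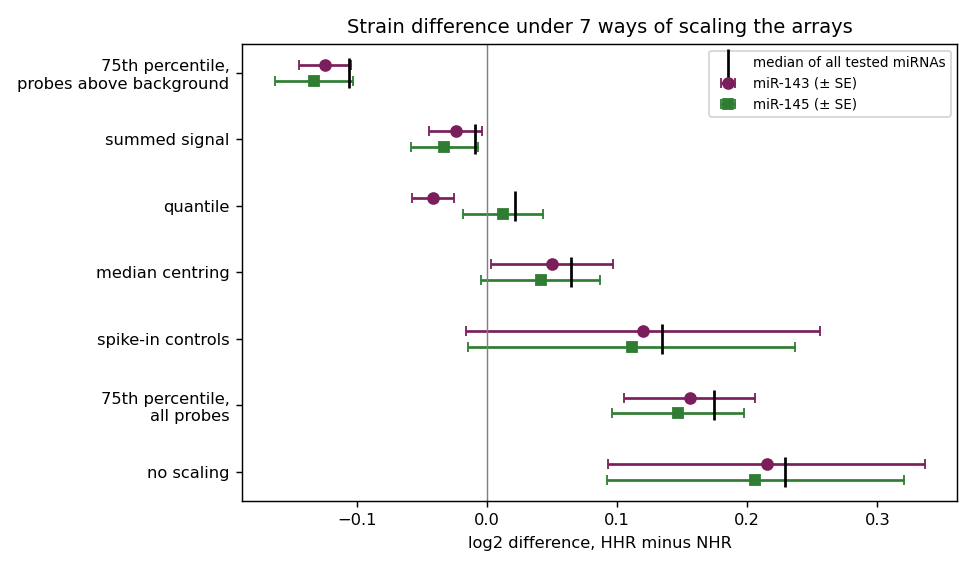
Log2 difference between strains, HHR minus NHR, for miR-143 (circles) and miR-145 (squares) with their SE, under 7 ways of scaling the 16 arrays; the black tick is the median of the 233 tested miRNAs. The members move with the tick from -0.12 and -0.13 under the 75th percentile of well-detected probes to 0.21 for both with no scaling.

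HHR arrays were on the whole brighter before scaling. The 75th percentile of their signal lay between 418 and 525, against 295 to 327 on 5 NHR arrays and 443 to 503 on the other 3. With this brightness as a covariate limma still called miR-143 lower (-0.11, adjusted p = 0.00438) and did not call miR-145 (-0.085, adjusted p = 0.0574). With that covariate 59 of the 233 miRNAs were called lower, and the median difference was -0.060.

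The strain difference had the same sign in both sexes. Among females it was -0.14 ± 0.028 for miR-143 (SE, n = 4 each, limma adjusted p = 0.00223) and -0.10 ± 0.043 for miR-145 (limma adjusted p = 0.0621), where 45.1% of all miRNAs were called and 38.6% were called lower. Among males it was -0.11 ± 0.028 for miR-143 (SE, n = 4 each, limma adjusted p = 0.0136) and -0.16 ± 0.043 for miR-145 (limma adjusted p = 0.0149), where 20.6% were called and 16.7% were called lower. NHR male 3, with the highest miR-145, bore on these calls: without it both members were called in females and 1 in males. The difference between the sexes in the strain effect, female minus male, was -0.027 for miR-143 (95% interval -0.11 to 0.060, limma adjusted p = 0.943) and 0.062 for miR-145 (95% interval -0.068 to 0.19, limma adjusted p = 0.931). So miR-145, called in males and not in females, was not shown to differ between the sexes. limma called 0 of the 233 miRNAs for this interaction (0.00%) and 9 had an unadjusted p under 0.05. Females differed from males over both strains by -0.010 for miR-143 and -0.028 for miR-145 (limma adjusted p = 0.970 for both); limma called 0 of 233 for sex (0.00%), with 23 at an unadjusted p under 0.05.

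Each member was read by 2 probes, with 10 spots each on every array. The fit over 355 detected probes called 166 (46.8%) lower in HHR, the 4 member probes among them. The probes of miR-143 differed by -0.12 and -0.13, and those of miR-145 by -0.14 and -0.13 (log2, HHR minus NHR; limma adjusted p from 1.37e-04 to 0.0109). The brighter probe of miR-143 gave 5.12 ± 0.0591 times the signal of the dimmer one over 8 HHR arrays and 5.10 ± 0.145 times over 8 NHR arrays (mean ± SD). For miR-145 this ratio was 1.72 ± 0.0960 in HHR and 1.71 ± 0.0854 in NHR. The probes of a member thus agreed on the size of the strain difference. The standard error from the 20 spots of an array was 0.572% of the signal for miR-143 and 2.30% for miR-145 (medians over arrays), smaller than the spread between animals of a group, 2.01% and 3.94%. No spot on any array was saturated.

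The star arms gave little. For miR-145*, the mean signal of its probes lay between -1.99 and 1.67 scanner units before scaling, around 0, and 0 of 320 spots were well above background. One probe of miR-143* read between -2.10 and 0.457. The other probe of miR-143* was above 0 on all 16 arrays, from 6.02 to 7.69 in HHR and from 4.13 to 9.08 in NHR, and 153 of its 160 spots were marked positive and significant, but 1 was well above background. The strains overlapped on that probe, and the 2 probes of miR-143* disagreed, so no level or ratio to the main arm is given for either star arm.

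A difference between 2 miRNAs of the same array does not depend on how the array is scaled, so it compares the strains without that choice. Such differences were formed for 6 pairs and tested by two-sided exact permutation over the 12870 ways to divide 16 arrays into 8 and 8, with p adjusted over the 6 pairs. The level of miR-145 relative to miR-143 lay between -5.49 and -5.43 in HHR hearts and between -5.55 and -5.31 in NHR hearts on the log2 scale (medians -5.47 and -5.47). The strains differed by -0.0088 (95% interval -0.066 to 0.045, exact permutation p = 0.777, adjusted p = 0.777). Both ends of the interval lie within the spread of NHR animals (SD 0.072). Without NHR male 3 the difference was 0.012.

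Relative to miR-1, the main miRNA of cardiac muscle, neither member differed beyond its spread. miR-143 minus miR-1 was lower by 0.024 in HHR than in NHR (difference -0.024, 95% interval -0.098 to 0.048, exact permutation adjusted p = 0.588). miR-145 minus miR-1 differed by -0.033 (95% interval -0.12 to 0.060, exact permutation adjusted p = 0.588).

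Relative to miR-126, the miRNA of endothelium that lies in an intron of Egfl7, miR-143 was higher in HHR. Of the pair miR-126 stood farther from the median miRNA. With arrays scaled to the well-detected probes, its strain difference lay at -0.090 from the median and that of miR-143 at -0.018. miR-143 minus miR-126 was 0.30, 0.31, 0.30 and 0.33 in HHR females, 0.34, 0.46, 0.32 and 0.29 in HHR males, 0.28, 0.27, 0.14 and 0.25 in NHR females and 0.28, 0.30, 0.26 and 0.30 in NHR males. HHR male 2 was the highest and NHR female 3 the lowest, and the strains overlapped around 0.30. The strains differed by 0.072 ± 0.026 (SE, 95% interval 0.024 to 0.13, exact permutation p = 7.77e-04, adjusted p = 0.00233). It was 0.074 within the first slide and 0.070 within the second, and between 0.054 and 0.078 when each array was left out in turn. With quantile normalization, which does not keep differences within an array, it was 0.048 and was not called (adjusted p = 0.0918). For miR-145 minus miR-126 the difference was 0.063 (95% interval -0.014 to 0.14, exact permutation adjusted p = 0.208). Without NHR male 3 it was 0.084 and passed (exact permutation adjusted p = 0.0292).

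Relative to miR-378, 241 kb away, miR-143 was lower in HHR. miR-143 minus miR-378 lay between 0.94 and 1.13 in HHR hearts (median 0.99) and between 1.50 and 1.60 in NHR hearts (median 1.54), with no overlap. The strains differed by -0.54 ± 0.025 (SE, 95% interval -0.59 to -0.48, exact permutation p = 1.55e-04, the smallest this test can give; adjusted p = 9.32e-04). miR-378 was the member of the pair that stood apart from other miRNAs: it was higher in HHR by 0.41 ± 0.034 and miR-378* by 0.37 ± 0.037 (limma adjusted p = 3.26e-07 and 1.91e-06), and both were called higher under each of the 7 scalings.

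**Figure D3:**
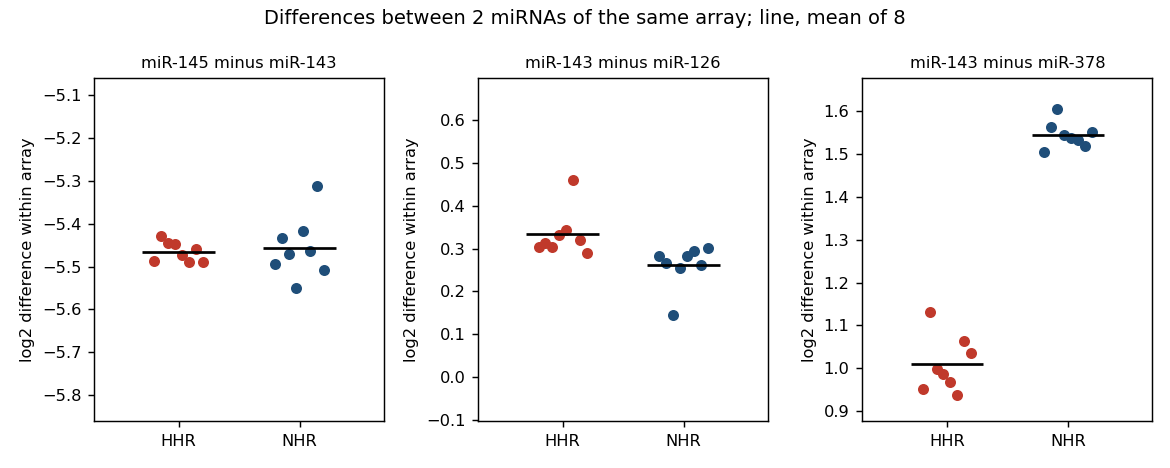
Log2 difference between 2 miRNAs of the same array, by strain, for miR-145 minus miR-143, miR-143 minus miR-126 and miR-143 minus miR-378; each point is an animal and the line is the mean of 8. All panels span the same range of log2 units. The strains coincide for miR-145 minus miR-143, differ by 0.072 for miR-126 with overlap, and are apart by 0.54 for miR-378.

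miR-143 varied little between animals. Its SD within groups was 0.0288 on the log2 scale, the lowest of the 186 miRNAs detected on all arrays, next to miR-107 (0.0288 as well) and let-7d (0.0333). The median miRNA had an SD of 0.0872. The brightest miRNAs had the smaller spread on these arrays: among the 20 brightest the median SD was 0.0527 and the range 0.0288 to 0.131. The rank depended on the scaling: miR-143 was 8th lowest with quantile normalization, 4th with the summed signal, 36th with median centring, 58th with the percentile over all probes, 71st with the spike-in controls and 76th with no scaling. miR-145, with an SD of 0.0558, was the 52nd lowest of 186.

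**Figure D4:**
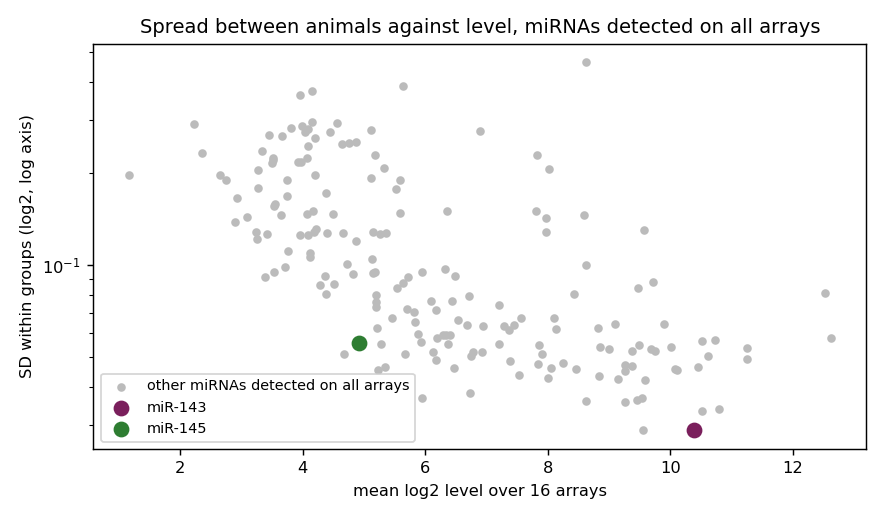
SD of log2 level within the 4 groups (log axis) against mean log2 level over 16 arrays, for the 186 miRNAs detected on all arrays. miR-143, at 0.0288, is the lowest point under this scaling and miR-145, at 0.0558, lies at the lower edge of the miRNAs of its own brightness.

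Under this scaling the members did not clearly vary together between animals. Deviations from the group means correlated at r = 0.42 over 16 arrays (permutation p = 0.109, adjusted over 3 relations 0.163; Spearman's rho 0.45, permutation p = 0.0823, adjusted p = 0.123). Without the 2 arrays farthest from the median deviation of miR-143, NHR female 1 and NHR male 1, r was 0.25. NHR male 3 was kept in that repeat. Within HHR r was 0.72 (n = 8, exact permutation p = 0.0432, adjusted p = 0.130; rho 0.74, exact permutation p = 0.0458, adjusted p = 0.123). Within NHR r was 0.20 (n = 8, exact permutation p = 0.647, adjusted p = 0.647; rho 0.048, exact permutation p = 0.935, adjusted p = 0.935). These values within a strain are correlations of log2 levels, with the means of the sexes left in, and not of deviations from the group means. The difference between the strains in r was not tested. Without scaling r was 0.98, in values that keep the brightness of each array. With 6 alternatives of the processing, no scaling among them, the correlation passed (permutation p under 0.05, not adjusted). The part of array brightness in these correlations was not tested. NHR male 3, whose miR-145 was the highest of all at 34.5 and whose miR-143 was at 1371, below its group's mean, lay farthest from the rest.

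**Figure D5:**
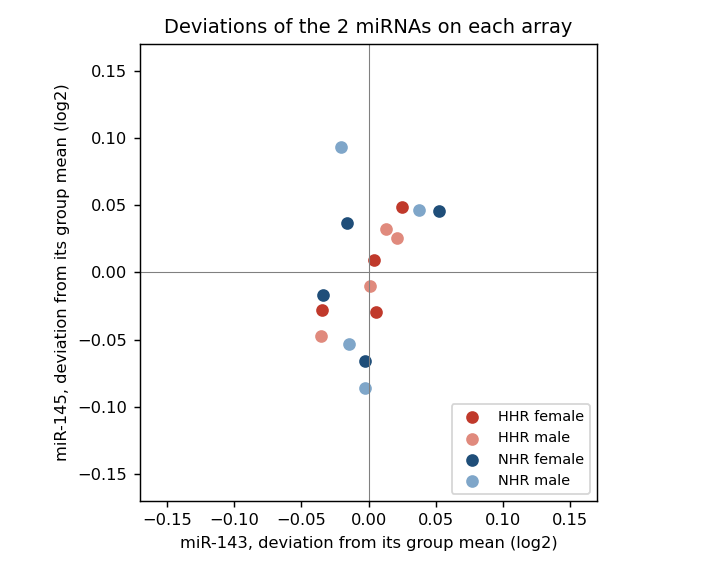
Deviation of miR-145 from its group mean against that of miR-143, log2 scale, with 1 point per array coloured by strain and sex. HHR points lie nearer to a rising line than NHR points. The correlations within a strain were computed on log2 levels and not on the deviations plotted (r = 0.72 in HHR and 0.20 in NHR, n = 8 each). Neither passed after adjustment.

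By likeness of these deviations over 16 arrays, as a description with no test, miR-143 was closest to miR-30b-3p (r = 0.71), miR-542-3p (0.70), miR-30e* (0.68), miR-30c (0.65) and miR-186 (0.64). The median r of miR-143 with 185 other miRNAs was 0.24, and miR-145 stood 37th in its order. miR-145 was closest to miR-365 (r = 0.82), miR-99b (0.80), miR-191* (0.80), miR-1224 (0.79) and miR-1* (0.78), and miR-143 stood 57th in its order, with a median r of 0.24. The arms of the one transcript were thus not each other's closest miRNAs on these arrays under this scaling. The points share the array, its scaling and its brightness.

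Other miRNAs that act on smooth muscle were read beside the pair. Of the list that favours the contractile state or restrains growth (miR-1, miR-133a, miR-195, miR-365, miR-322, miR-34a, let-7d, miR-132 and miR-10a-5p), 8 were tested, 1 was called higher and 4 lower, with a median difference of -0.11, as over all miRNAs. miR-34a, induced by the tumour suppressor p53, was the one called higher: 111 ± 9.05 in HHR and 57.1 ± 3.38 in NHR (log2 difference 0.96 ± 0.048 SE, limma adjusted p = 1.52e-09). It was called higher under each of the 7 scalings. miR-195, a member of the miR-15 family that slows the cell cycle, was 41.4 ± 1.99 in HHR and 52.5 ± 3.33 in NHR (log2 difference -0.34, limma adjusted p = 2.30e-05); it was not called with no scaling (-0.0031), the spike-in controls or the percentile over all probes. The others called lower were let-7d (-0.13), miR-365 (-0.24) and miR-10a-5p (-0.37), with limma adjusted p of 3.28e-04, 0.00188 and 0.0113. miR-10a-5p was not called under any of the other 6 scalings.

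Of the list that favours growth or the synthetic state (miR-21, miR-24, miR-26a, miR-31, miR-130a, miR-146a, miR-221 and miR-222), 7 were tested, 1 was called higher and 4 lower, with a median of -0.087. miR-146a, which dampens inflammatory signalling, was 45.0 ± 1.92 in HHR and 55.4 ± 4.25 in NHR (log2 difference -0.30, limma adjusted p = 1.17e-04). miR-24 was 1060 ± 21.8 in HHR and 1162 ± 47.3 in NHR (log2 difference -0.13, limma adjusted p = 0.00117). The other 2 called lower were miR-21, given with the fibroblast list, and miR-26a (-0.087, limma adjusted p = 0.0215). The 1 called higher was miR-31, near the detection limit, at 12.1 ± 4.90 in HHR and 7.46 ± 2.31 in NHR. Its log2 difference was 0.69 ± 0.26 (SE, limma adjusted p = 0.0417). It was detected on 8 HHR and 5 NHR arrays, and a fold so near the detection limit is uncertain. With the percentile over all probes, 5 contractile and 6 growth miRNAs were called higher and 0 lower, so neither list has a direction of its own here.

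Markers of the other cells of the heart were read in the same way, and their part in the members' values was not tested. Over all 233 tested miRNAs 45.5% were called lower and 9.01% higher, the shares to set beside the count of each list. Of 6 tested miRNAs of cardiac muscle, miR-1 and miR-133a of the contractile list among them, 4 were called lower and 0 higher (median -0.14), with a summed level of 11516 to 12963 in HHR and 12276 to 13907 in NHR; miR-208 was detected on 0 arrays although its star arm and miR-208b-3p were detected. miR-499, from an intron of a myosin gene, was 151 ± 4.97 in HHR and 184 ± 5.51 in NHR (log2 difference -0.28, limma adjusted p = 1.80e-06). miR-133b was 6016 ± 235 in HHR and 6677 ± 260.3 in NHR (log2 difference -0.15, limma adjusted p = 0.00132). The star arm of miR-208 (-0.13) and miR-208b-3p (-0.17) were the other 2 called lower (limma adjusted p = 0.0433 and 0.0354). With the percentile over all probes 4 of the 6 were called higher.

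Of 3 tested endothelial miRNAs 2 were called lower and 0 higher (median -0.20). Over all tested miRNAs 45.5% were called lower. The summed level of the list, nearly all of it miR-126, did not overlap between strains, at 975 to 1088 in HHR and 1166 to 1280.5 in NHR. Of all tested miRNAs, taken singly, 11.2% did not overlap with HHR lower. The 2 called lower were miR-126, at 1014 ± 34.0 in HHR and 1162 ± 35.9 in NHR (log2 difference -0.20, limma adjusted p = 4.48e-05), and miR-126* (-0.23, limma adjusted p = 0.00132). With the percentile over all probes neither was called and both differences were above 0. The third, miR-221, went the other way (log2 difference 0.20, limma adjusted p = 0.0780) and was detected on 6 HHR and 2 NHR arrays. It was called higher in HHR under each of the other scalings. miR-222 was detected on 0 arrays.

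Of 4 fibroblast miRNAs 1 was called higher and 1 lower (median 0.14), with summed levels of 3598 to 3991 in HHR and 3645 to 4126 in NHR. miR-199a-5p, known from fibrosis, was higher at 241 ± 24.5 in HHR and 210.1 ± 19.7 in NHR (log2 difference 0.20, limma adjusted p = 0.0335), and was above 0 under each of the 7 scalings. miR-21, which stands in this list and in the growth list, was 2323 ± 51.6 in HHR and 2540.4 ± 115 in NHR (log2 difference -0.13, limma adjusted p = 0.00252), and lay above 0 under 5 of the other scalings.

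Of 3 leukocyte miRNAs 2 were called lower and 0 higher (median -0.47), with summed levels of 92.1 to 107 in HHR and 109.8 to 148 in NHR. miR-150, of lymphocytes, was 30.6 ± 1.81 in HHR and 44.2 ± 2.52 in NHR (log2 difference -0.53, limma adjusted p = 1.05e-07). miR-223, of myeloid cells, was 34.2 ± 1.94 in HHR and 47.9 ± 8.51 in NHR (log2 difference -0.47, limma adjusted p = 0.00152). Both were below 0 under each of the 7 scalings. Neither was called with no scaling or the spike-in controls, and miR-223 was not called with the percentile over all probes. The third, miR-142-3p, was not called (log2 difference -0.11, limma adjusted p = 0.318). It lay above 0 with quantile normalization, median centring, the spike-in controls, no scaling and the percentile over all probes. miR-142-5p was detected on 0 arrays.

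The red cell miRNAs miR-144 and miR-451 were not called (0.069 and 0.037, limma adjusted p = 0.598 and 0.796), with summed levels of 199 to 307 in HHR and 209 to 332 in NHR. The 3 neural markers (miR-124, miR-9 and miR-9*) and the 6 markers of epithelium and liver (miR-122, miR-141, miR-200a, miR-200b, miR-200c and miR-429) were detected on 0 arrays. Of the cardiac muscle markers miR-1 and miR-133b were bright. The star arm of miR-208 (16.7 in HHR and 18.3 in NHR) and miR-208b-3p (14.7 and 16.5) were dimmer than miR-145, and miR-208 was not detected.

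On the chromosome of the cluster the array holds 17 other miRNA names, of which 7 were tested, 2 were called higher in HHR and 1 lower. The 2 called higher were miR-378 and miR-378*, given above. The 1 called lower was miR-1*, at 12.3 ± 1.28 in HHR and 16.4 ± 3.73 in NHR (log2 difference -0.38, limma adjusted p = 0.0272). miR-1 itself was 5680 ± 264 in HHR and 6090.1 ± 347 in NHR (log2 difference -0.100, limma adjusted p = 0.0526).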

How the data were processed

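Per the file headers, the authors' scanner output holds spot intensities on a linear scale from Agilent Feature Extraction 10.7.3.1, background-subtracted and not scaled between arrays; array coordinates, in build rn4, were not used. Detection flags (other values, 0 or 1) are as deposited. The authors also deposited log2 values for each array (column medians 6.13 to 6.15); the submitters' processing notes name limma, and their scaling and centring are unknown, so they served as an alternative.

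Outlier spots were left out, spots were averaged per probe and scaled probes per miRNA, a floor of 1.88 was set and log2 taken. Tests took in the miRNAs with detection on 4 or more arrays, 233 of 677; 186 had it on every array. limma 3.58.1 in R 4.3.3 fitted 4 group means, with Benjamini-Hochberg adjustment over 233 and a threshold of 0.05; it was tested on simulated data. Intervals are 95%. Differences within an array were tested by exact permutation, and correlations with 100000 resamples or exactly. The number of arrays limits the precision.

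Members and lists were chosen with earlier results of these data known. The miRNAs named are the members, the 5 most like each, miR-1, miR-126, miR-378 and miR-378*, and the 2 smallest strain p of each list; those named to complete a count were chosen after their values were seen. miR-10a was read as miR-10a-5p, its name on the array; miR-155 and miR-486 are in the lists but no array entry has their names, with or without an arm suffix. Samples were not treated as paired by replicate number. Deviations of 9 of 16 same-numbered pairs correlated above 0.1 (range -0.42 to 0.59), and in 6 the same number was the best match. These values do not settle whether the numbers pair the samples.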

Additional observations from a re-analysis of the deposited data

How the results depend on the processing

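Under the alternatives the direction of the strain difference turned on the scaling. For miR-143 it was 0.16 with the percentile over all probes, 0.21 with no scaling, 0.050 with median centring, 0.12 with the spike-in controls and 0.19 in the authors' table, and for miR-145 0.15, 0.21, 0.041, 0.11 and 0.054, with 0.012 by quantile normalization. It kept its sign but was not called for miR-143 by total gene signal (-0.062), quantile normalization (-0.041), summed signal (-0.024), slide 1 (-0.13) or 2 (-0.12) alone and males alone (-0.11). For miR-145 the same held by total gene signal (-0.071), summed signal (-0.033), slide 1 (-0.14) or 2 (-0.12) alone, females (-0.10) or males (-0.16) alone, brightness as covariate (-0.085) and arrays with a percentile above 400 (-0.090). The summed signal and the arrays above 400 were chosen after seeing the data. Normexp background (-0.085 for miR-143 and -0.21 for miR-145), the averaging of probes, the filter, the floor, array weights, the slide block, the moderation and leaving out the sex term kept both calls. Leaving out each array gave -0.13 to -0.12 for miR-143 and -0.15 to -0.12 for miR-145.

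Of 233 miRNAs, 127 were called for strain, against 70 with total gene signal, 48 with no scaling, 25 with spike-ins, 15 in the authors' table, 37 and 47 on slides 1 and 2 alone, 24 in males alone, 74 with the brightness covariate and 61 on arrays above 400. Of the calls, 83.5% were lower in HHR; it was 98.8% with normexp, 51.4% with total gene signal, 47.1% with the summed signal, 40.0% with quantile normalization or spike-ins, 32.2% with median centring, 20.8% with no scaling, 13.5% with the percentile over all probes and 13.3% in the authors' table. In females 1 member was called, and 2 with the higher floor and array weights. In females 2 were also called with the percentile over all probes, under which the differences over both sexes were above 0 (0.16 and 0.15). In males 2 were called. With total gene signal, normexp, quantile, no scaling, median centring, spike-ins, the authors' table, either slide alone, the summed signal and arrays above 400, 0 were called in either sex, as in males with the percentile over all probes. Leaving out each array gave 1 to 2 in each sex.

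Within arrays, miR-145 minus miR-143 was 0.053 by quantile normalization, 0.00012 on slide 2, 0.035 in females and 0.016 on arrays above 400, and -0.022 to 0.012 leaving out each array. miR-143 minus miR-1 was -0.050 and called by quantile normalization (exact permutation adjusted p = 9.32e-04), and 0.013 on slide 1. miR-145 minus miR-1 was 0.0034 by quantile normalization and 0.016 in females. miR-143 minus miR-126 kept its sign without a call by quantile normalization (0.048), on slide 1 (0.074) and 2 (0.070), in females (0.076) and males (0.068) and on arrays above 400 (0.086). miR-145 minus miR-126 was -0.052 with normexp and -0.072 in the authors' table, and 0.045 to 0.084 leaving out each array. miR-143 minus miR-378 kept its size without a call on slides 1 (-0.54) and 2 (-0.53), in females (-0.54) and males (-0.53). Slides and sexes alone hold 8 arrays. The correlation of the members was 0.86 with the percentile over all probes, 0.98 with no scaling, 0.82 with median centring, 0.99 with spike-ins, 0.70 with total gene signal and 0.97 in the authors' table. Each of these had a permutation p under 0.05, not adjusted. The cause of these changes was not tested.

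With the replicate number as a block the differences were -0.12 and -0.13 and 124 miRNAs were called. Samples were not treated as paired by number, so this block is given here only. The block changed no call of a member.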
